A study of Mus musculus with 6 samples.

Results

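The 41 transcripts described here are those of pancreatic acinar enzymes and of the proteins made or secreted with them, measured by RNA-seq in hepatic CD11c+ cells. They were taken by gene symbol from the deposited table of 31426 genes, and all 41 had a row. They had been chosen because their level differed between libraries of this same experiment, so their levels are given as a description and support nothing by themselves. The question was whether the members kept fixed proportions to each other where their summed level was low and where it was high, as they would if 1 RNA of fixed composition had been added in different amounts.

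The cells came from mice fed a high-fat diet (HFD) for 14 weeks. The 3 Atg5 CD11cKO libraries, numbered 25, 26 and 27, are from mice homozygous for floxed Atg5 and for Cre recombinase under the Itgax (CD11c) promoter, and the 3 WT libraries, numbered 21, 22 and 23, are from WT mice, for which the study used floxed littermates. All were C57BL/6 males, with an age given as 4 to 8 weeks. The point to which that age applies is not stated, and after 14 weeks of diet the mice were older. Cre acts in every cell type in which the CD11c promoter is active, not in DCs alone. Cells were dissociated from the liver and enriched on CD11c MicroBeads, and 10 ng of RNA went into each library. The labels tie no library to a single mouse, so any p-value measures the spread between libraries, which may be technical.

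Acinar cells fill most of the exocrine pancreas and make digestive enzymes, many of them as inactive zymogens that are packed into granules and released into the duct. The transcription factor complex PTF1, with the subunits Ptf1a and Rbpjl, drives many of these genes, and Bhlha15 (Mist1) shapes the secretory machinery. Liver and CD11c+ immune cells are not known as a source of most of these transcripts, although Klk1, Tff2, Dmbt1, Zg16, Reg3b, Rnase1, Cela1 and Bhlha15 are also known from other tissues.

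The libraries held between 31064570 and 34034675 counts. The library labelled WT 23 stood apart from WT 21 and WT 22. Atg5 was at 21.3, 21.0 and 20.8 CPM (counts scaled to a library total of 1000000) in Atg5 CD11cKO 25, 26 and 27, and at 53.1, 49.4 and 22.3 CPM in WT 21, 22 and 23. The library labelled WT 23 thus had the Atg5 level of the Atg5 CD11cKO libraries, and its label could not be checked further. Itgax, which encodes CD11c, was at 493, 464 and 483 CPM in the Atg5 CD11cKO libraries and at 425, 440 and 477 CPM in the WT libraries. Most other markers of the fraction split the libraries as the acinar transcripts do. Without the library labelled WT 23, 6 of the 10 listed, Itgax among them, were higher and 3 were lower by edgeR. Of all 18241 genes in that fit, 15.9% were higher and 15.1% were lower. Lyz2, a macrophage lysozyme, was at 6730.4, 6808 and 6713 CPM in the Atg5 CD11cKO libraries, against 2464, 2390.05 and 6680.1 CPM in the WT libraries, and Siglech, a marker of plasmacytoid DCs, was at 300.2, 301 and 298 CPM, against 759, 753 and 308 CPM. The part of these cells in the acinar levels was not tested. Results that rest on WT levels are therefore given with the library labelled WT 23 and without it. In a bulk fraction such as this, fewer cells of a type and less RNA per cell cannot be told apart.

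Several members are near-identical copies, and their reads can be shared between copies by the counting. The annotated transcripts of Amy2a2, Amy2a3 and Amy2a4 were identical over all 3717 bases in GENCODE vM21, and the 3 genes carried equal counts in every library. They therefore show 1 pattern across libraries under 3 names. Whether shared reads were divided between the copies or counted for each is not given. All 3 rows enter the summed share and the amylase share. Amy2a5 was 98.5% identical to them, and the 890-base model of Amy2a1 differed from them at 1 base. Amy2b, annotated in the files as an unprocessed pseudogene, was 98.0% identical over 1561 aligned bases, and Try4 and Try5 were 97.1% identical. The 60 bases in which Amy2a2 and Amy2b, and likewise Try4 and Try5, differ most within the coding sequence of Amy2a2 and of Try4 are shown because such bases are all that a read has for telling the copies apart. They run from base 342 to 401 of the Amy2a2 transcript and from base 204 to 263 of that of Amy2b (both on chromosome 3), and from base 479 to 538 of the Try4 and Try5 transcripts (chromosome 6), and capitals mark the bases that differ within each pair.
Amy2a2: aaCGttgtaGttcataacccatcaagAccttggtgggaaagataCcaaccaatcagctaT
Amy2b: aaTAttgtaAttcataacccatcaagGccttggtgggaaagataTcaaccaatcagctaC
Try4: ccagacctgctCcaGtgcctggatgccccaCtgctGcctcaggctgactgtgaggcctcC
Try5: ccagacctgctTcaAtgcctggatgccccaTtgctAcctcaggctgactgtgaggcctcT
The first pair differed at 6 of 60 bases and the second at 5 of 60, so levels of single copies within these families are uncertain. Family sums are less so if shared reads were divided between the copies.

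Member promoters were searched for letters that the rule did not use. PTF1 binds an E-box next to a box with the letters TTTCCC. RefSeq promoters (GRCm38.p6, 250 bases before to 50 after the start) were found for 34 of the 41 members and searched on both strands. The E-box CACCTG was in 18 of 34 member promoters (52.9%), against 20.2% of 32851 promoters, and the E-box CAGCTG was in 11 (32.4%), against 16.3%. Of those 11, 5 were the near-identical copies Amy2a1 to Amy2a5, and 8 of the 34 promoters had neither E-box. TTTCCC alone was in 12 (35.3%), against 25.2%, and AAGGTCA, the letters bound by the acinar factor Nr5a2, was in 4 (11.8%), against 4.72%. Either E-box followed by TTTCCC within 20 bases on the same strand was in 4 member promoters, Cela1, Ctrb1, Prss1 and Cpa1 (11.8%), against 0.606% of all promoters. The stretches of 3 of these are shown, with the E-box and the TTTCCC box in capitals; that of Prss1 lies on the other strand and so reads as its reverse complement. They lie at chr15:100687999-100688044 (minus strand), chr8:111691185-111691230 (minus strand) and chr6:41458809-41458854 (plus strand).
Cela1: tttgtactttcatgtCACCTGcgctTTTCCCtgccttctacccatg
Ctrb1: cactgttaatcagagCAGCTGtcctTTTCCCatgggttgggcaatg
Prss1: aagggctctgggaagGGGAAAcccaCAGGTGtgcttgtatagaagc
A match is a description of the letters only. Cela1 and Ctrb1 were among the abundant members, whereas Prss1 reached at most 7.45 counts in any library, so the pair of boxes was found at both ends of the range of levels.

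Summed over all 41 members, acinar transcripts made up 0.0812%, 0.0836% and 0.0810% of all counts in Atg5 CD11cKO 25, 26 and 27, against 4.15%, 4.11% and 0.0790% in WT 21, 22 and 23. These shares stand for 25241, 27336 and 25718 counts in the Atg5 CD11cKO libraries and for 1356856, 1399899 and 24545 counts in the WT libraries. WT 21 and WT 22 were alike and high, and the other 4 libraries were alike and low, the library labelled WT 23 being the lowest of the 6. The Atg5 CD11cKO mean was 2.95% of the mean of all 3 WT libraries (33.9-fold lower) and 1.98% of the mean of WT 21 and WT 22 (50.4-fold lower). The library labelled WT 23 held 1.91% of the share in WT 21 and WT 22.

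**Figure D1:**
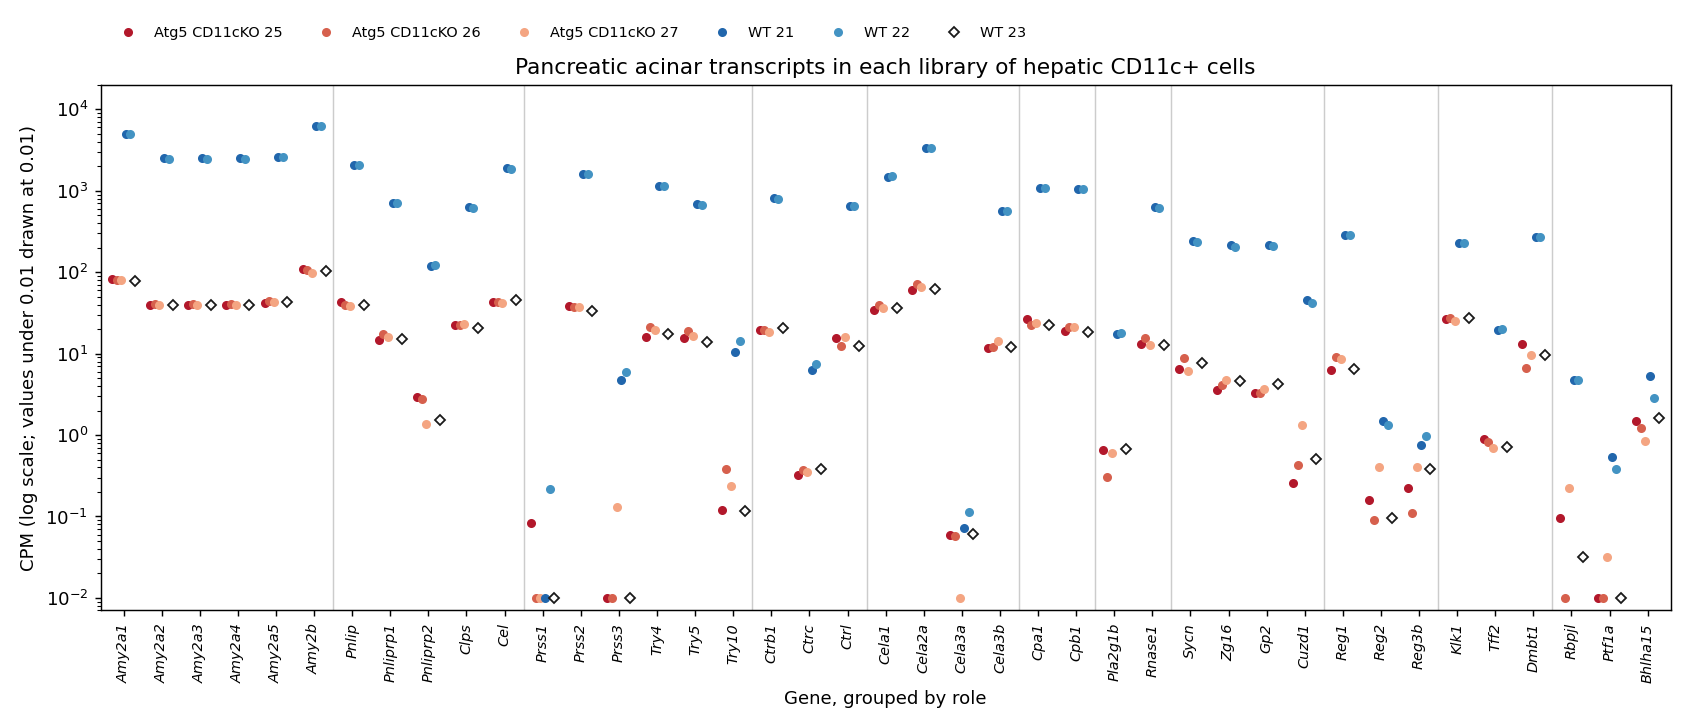
CPM of each of the 41 transcripts (log axis, values under 0.01 drawn at 0.01) in the 3 Atg5 CD11cKO libraries (red), in WT 21 and WT 22 (blue) and in the library labelled WT 23 (open diamonds), 1 point per library, with vertical lines between roles. For 40 of 41 transcripts the 3 Atg5 CD11cKO libraries lie below WT 21 and WT 22, and the library labelled WT 23 lies within the Atg5 CD11cKO range for 27.

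Across single members, the 3 Atg5 CD11cKO libraries were below both WT 21 and WT 22 for 40 of 41, Prss1 being the exception. The same held for 19.7% of the 31393 genes with counts. Below all 3 WT libraries they were for only 8 of 41, against 7.42% of those genes. In the comparison of the 6 libraries as labelled, edgeR's quasi-likelihood test called 0 of 17499 genes lower and 0 higher at an adjusted p under 0.05 (0% in each direction), and 0 of the 36 members that passed its filter on low counts. At an unadjusted p under 0.05, 35 of these 36 were lower, against 9.17% of all genes. DESeq2 called 32 of 38 members lower, against 2.07% of genes. Without the library labelled WT 23, 38 of 39 members were lower, against 15.1% of 18241 genes, the exception being Reg3b with an edgeR adjusted p of 0.071. The median log2 fold change of the members was -4.92 as labelled and -5.48 without that library, where the median over all genes was -0.01 in each. In none of these 4 counts was a member higher, against 0%, 5.21%, 0.245% and 15.9% of genes. The members had been chosen on this contrast, so nothing is read from these counts.

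The amylases, which cut starch into short sugars, held the most counts. Amy2a1 (chr3:113529403-113532429, with the gene's end 1 base past that of GENCODE, as for all members) was at 81.5, 80.6 and 80.8 CPM in Atg5 CD11cKO 25, 26 and 27, against 4934, 4967 and 78.4 CPM in WT 21, 22 and 23. Amy2b (chr3:113147656-113156728) was at 109, 107 and 98.2 CPM in the Atg5 CD11cKO libraries, against 6303, 6219 and 103 CPM in the WT libraries. The shared value of Amy2a2, Amy2a3 and Amy2a4 was 39.5, 41.2 and 39.9 CPM, against 2509, 2479 and 39.6 CPM. For every amylase, WT 21 and WT 22 were far above the other 4 libraries, which lay close together. Relative to WT 21 and WT 22, what remained in the Atg5 CD11cKO libraries was 1.64% for Amy2a1, 1.61% for Amy2a2 to Amy2a4, 1.66% for Amy2a5 and 1.67% for Amy2b. For the summed amylases it was 1.64% (95% interval 1.62% to 1.66%), and in the library labelled WT 23 it was 1.61%. All such intervals are exact intervals of a ratio of counts and cover counting error only.

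The lipases and their cofactor kept a larger part. Pnlip, the main triglyceride lipase of pancreatic juice (chr19:58652498-58681789), was at 42.9, 40.0 and 39.0 CPM in the Atg5 CD11cKO libraries, against 2076, 2049.5 and 40.1 CPM in the WT libraries, and 1.97% remained. Clps, the colipase that holds the lipase on bile-salt-coated fat (chr17:28558149-28560767), was at 22.8, 22.8 and 23.2 CPM, against 640.1, 614 and 20.5 CPM. Its remaining level was 3.65% (3.50% to 3.82%), and 3.27% in the library labelled WT 23. The 4 low libraries were close together for Clps too, at a higher percentage than for the amylases. Cel, a bile-salt-stimulated lipase that also splits cholesterol esters, kept 2.28%, Pnliprp1, a lipase relative, kept 2.25%, and Pnliprp2, which also acts on galactolipids, kept 1.96%.

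Among the trypsinogens, the zymogens of trypsin, Prss2 (chr6:41521787-41525080) was at 38.8, 37.3 and 37.6 CPM in the Atg5 CD11cKO libraries, against 1617, 1615 and 33.1 CPM in the WT libraries, and 2.35% remained. The near-identical Try4 and Try5 parted from each other. Try4 was at 16.03, 21.5 and 19.4 CPM, against 1157, 1145 and 17.4 CPM, and Try5 was at 15.6, 18.7 and 16.6 CPM, against 683, 676 and 13.8 CPM. Per kilobase of exon, Try4 was at 20.01, 26.9 and 24.2 CPM and Try5 at 17.3, 20.8 and 18.4 CPM in the Atg5 CD11cKO libraries. In the WT libraries Try4 was at 1445, 1429.8 and 21.7 CPM and Try5 at 757, 749 and 15.3 CPM. Try4 was thus above Try5 in every library, by a smaller factor in the 4 low libraries. The remaining levels were 1.65% for Try4 (1.58% to 1.73%) and 2.498% for Try5 (2.38% to 2.63%), and 1.51% and 2.03% in the library labelled WT 23. Try10 kept 1.99% (1.27% to 3.01%). Prss3 had 0, 0 and 4.14 counts in the Atg5 CD11cKO libraries, against 155, 205 and 0 counts in the WT libraries. Prss1 was under 8 counts in every library, so no change could be detected at this depth.

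The chymotrypsins and elastases, which cut proteins beside aromatic and beside small residues, lay near the middle. Ctrb1, chymotrypsinogen B (chr8:111686519-111691011), was at 19.6, 19.4 and 18.6 CPM in the Atg5 CD11cKO libraries, against 809, 785 and 20.4 CPM in the WT libraries, and 2.41% remained. Ctrl, a chymotrypsin-like protease, kept 2.26%. Cela2a (chr4:141814962-141826161) was at 60.1, 70.9 and 66.5 CPM, against 3371, 3339.9 and 61.4 CPM, and kept 1.96%. Cela1 was at 34.5, 39.7 and 36.7 CPM, against 1489.8, 1519 and 35.9 CPM, and kept 2.46%, while Cela3b kept 2.25%. Cela2a was thus at the summed value of 1.98% and the others lay above it. Ctrc, whose protein regulates the activation of trypsinogen, kept 5.04% (3.44% to 7.17%) from 10.1, 12.3 and 11.03 counts, against 206, 256 and 12.04 counts, and its gene model ends at the same base as that of Cela2a on the minus strand and overlaps it, so its counts are uncertain. Cela3a stayed under 4 counts in every library.

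The carboxypeptidases trim single residues from the ends of the peptides. Cpa1 (chr6:30639218-30645364) was at 26.4, 22.5 and 23.8 CPM in the Atg5 CD11cKO libraries, against 1073, 1075 and 22.8 CPM in the WT libraries, and kept 2.26%. Cpb1 (chr3:20248264-20275734) was at 18.9, 21.2 and 21.3 CPM, against 1059, 1047 and 18.5 CPM, and kept 1.95%. Rnase1, the secreted pancreatic ribonuclease, kept 2.24%, and Pla2g1b, the phospholipase of pancreatic juice, kept 2.94% (2.16% to 3.89%). The enzyme groups outside the amylases thus had summed remaining levels between 2.10% for the carboxypeptidases and 2.36% for the chymotrypsins, none of whose 95% intervals reached that of the amylases.

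The granule proteins varied more. Sycn, a protein of the granule membrane (chr7:28540885-28542210), was at 6.56, 8.90 and 6.17 CPM in the Atg5 CD11cKO libraries, against 241, 237 and 7.62 CPM in the WT libraries, and kept 3.02% (2.80% to 3.27%). Gp2, the main glycoprotein of that membrane (chr7:119442537-119459286), was at 3.28, 3.24 and 3.72 CPM, against 216, 208 and 4.25 CPM, and kept 1.61% (1.44% to 1.79%). Sycn and Gp2 thus lay on opposite sides of the summed value although both belong to the granule. However, Sycn overlaps Samd4b on the other strand, and whether the counting used strand is not stated. Samd4b had 1313, 1236 and 1145 counts in the Atg5 CD11cKO libraries, against 204, 291 and 196 for Sycn, so the remaining level of Sycn is uncertain. Zg16, a lectin of the granule, kept 1.96%, and Cuzd1 kept 1.53% (1.18% to 1.96%) from only 8, 14 and 42 counts in the Atg5 CD11cKO libraries. Cuzd1 overlaps Fgfr2 on the same strand, which had 145, 107 and 85.8 counts in these libraries, so the remaining level of Cuzd1 is uncertain. Reg1, a secreted lectin-like protein (chr6:78422711-78428668), was at 6.30, 9.14 and 8.54 CPM, against 286, 284 and 6.41 CPM, and kept 2.80% (2.61% to 3.02%). Its relatives Reg2 and Reg3b never passed 49 counts in a library and kept 15.6% and 29.0%, with intervals from 9.23% to 25.2% and from 17.0% to 47.2%.

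Of the members with at least 1000 counts, Klk1 departed most from the summed value, and it is 1 of those known from other tissues. Klk1, tissue kallikrein (chr7:44225360-44229619), was at 26.7, 27.4 and 25.2 CPM in the Atg5 CD11cKO libraries, against 228, 228 and 27.5 CPM in the WT libraries. The 4 low libraries were again close together, yet 11.6% remained (11.1% to 12.1%), and 12.1% in the library labelled WT 23. Klk1 made up 3.29%, 3.27% and 3.12% of the members' counts in the Atg5 CD11cKO libraries, against 0.548%, 0.554% and 3.48% in the WT libraries. Tff2, a trefoil peptide of gastric mucus, kept 4.08% (3.20% to 5.13%). Dmbt1, a secreted scavenger receptor protein, kept 3.60% (3.35% to 3.83%), with 13.02, 6.67 and 9.51 CPM in the Atg5 CD11cKO libraries, against 273, 267 and 9.69 CPM in the WT libraries. The genes of salivary gland and of stomach and gut listed beside the members were at most 52.0 counts in any library for those with a row, so these tissues were represented by few genes here.

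Of the transcription factors, Rbpjl had 3, 0 and 7.04 counts in the Atg5 CD11cKO libraries, against 157, 162 and 1 in the WT libraries. Ptf1a had 0, 0 and 1 counts, against 17.3, 13 and 0. Both were thus detected mainly in the libraries rich in acinar transcripts. Bhlha15 had 46.1, 39.7 and 27.1 counts, against 172, 98.4 and 50.3, and kept 29.0% (23.2% to 36.4%). It is also made by plasma cells, whose 6 listed markers held 0.0385%, 0.0393% and 0.0392% of counts in the Atg5 CD11cKO libraries, against 0.0387%, 0.0402% and 0.0384% in the WT libraries. Most of that sum was Xbp1, at 302, 302 and 304 CPM in the Atg5 CD11cKO libraries, against 305, 325 and 299.8 CPM in the WT libraries. Of 5 markers tested without the library labelled WT 23, Jchain and Sdc1 were higher and Mzb1 was lower by edgeR, at 131%, 191% and 30.4% of WT 21 and WT 22. Among all genes in that fit, 15.9% were higher and 15.1% were lower. The part of these cells in the Bhlha15 level was not tested. The Bhlha15 gene overlaps Tecpr1 on the other strand, and it is not stated whether the counting used strand. The same limit holds for other members, among them Sycn, Cela2a with Casp9, Klk1 with Gm10109 and Dmbt1 with Fgfr2.

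**Figure D2:**
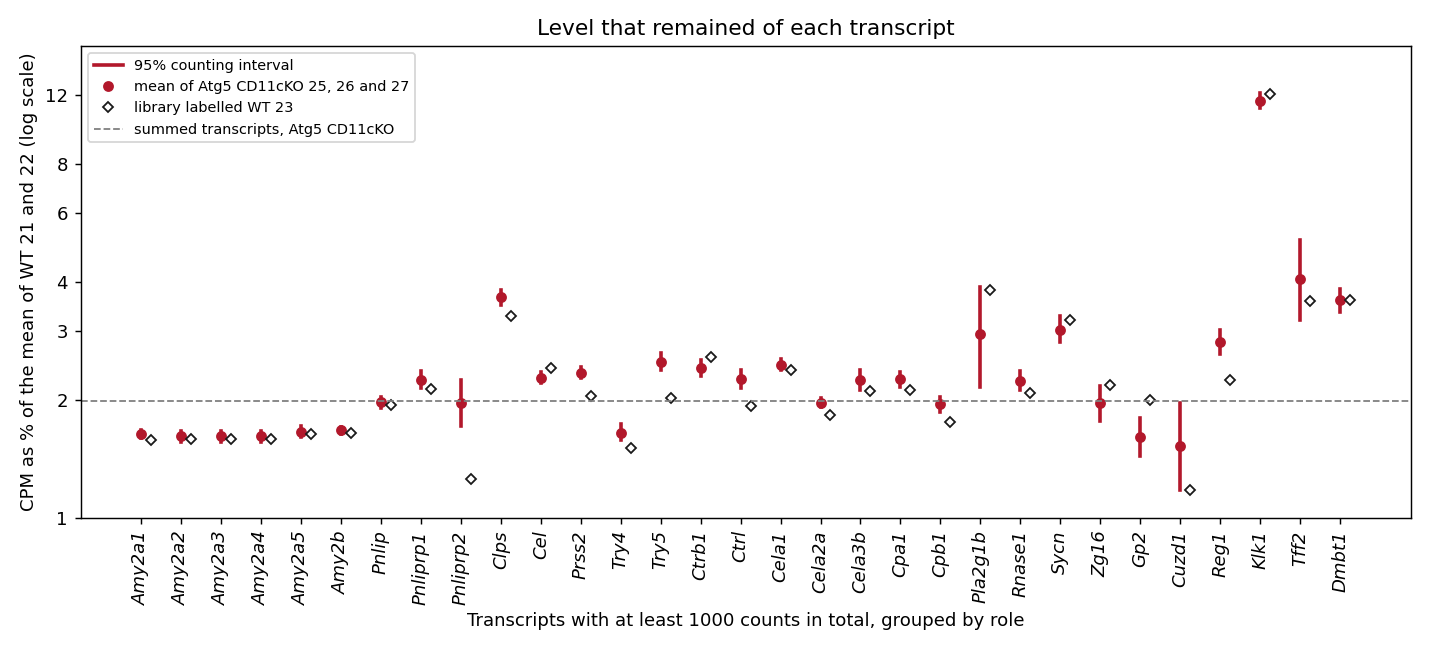
CPM as a percentage of the mean of WT 21 and WT 22 (log axis) for the 31 transcripts with at least 1000 counts in total, as the mean of the 3 Atg5 CD11cKO libraries with its 95% counting interval (red) and for the library labelled WT 23 (open diamonds). The dashed line is the summed value of the 41 transcripts, 1.98%, and the amylases lie below it near 1.64% while Clps (3.65%) and Klk1 (11.6%) lie above it.

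The members therefore did not all keep the same proportions. The part in this of shared reads, of overlapping genes and of members made in other tissues was not tested. Of the 29 distinct members with at least 1000 counts in total, the summed value of 1.98% was within the 95% counting interval for 5, below it for 17 and above it for 7. Distinct means only that copies of equal counts were taken once. Near-identical copies such as the other amylases, or Try4 and Try5, still enter singly and are not separate departures. The intervals take no account of reads shared between copies. In a view by library, each of the 25 distinct members with at least 100 counts in every library was set against the summed value of the same library. Both were taken relative to the mean of WT 21 and WT 22. All 3 Atg5 CD11cKO libraries were below it for 6 (Amy2a1, Amy2a2, Amy2a5, Amy2b, Try4 and Gp2, with copies of equal counts taken once), and all 3 were above it for 14 (Pnliprp1, Clps, Cel, Prss2, Try5, Ctrb1, Cela1, Cela3b, Cpa1, Rnase1, Sycn, Reg1, Klk1 and Dmbt1). The library labelled WT 23 lay on the same side as these 3 for 19 of the 20. All these values share the mean of WT 21 and WT 22 as divisor, so the libraries do not give independent answers. The amylases were 51.5% of the members' counts in WT 21 and WT 22, which pulls the summed value towards theirs. Most other members therefore tend to fall above it, and these tallies largely set the amylases against the rest.

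**Figure D3:**
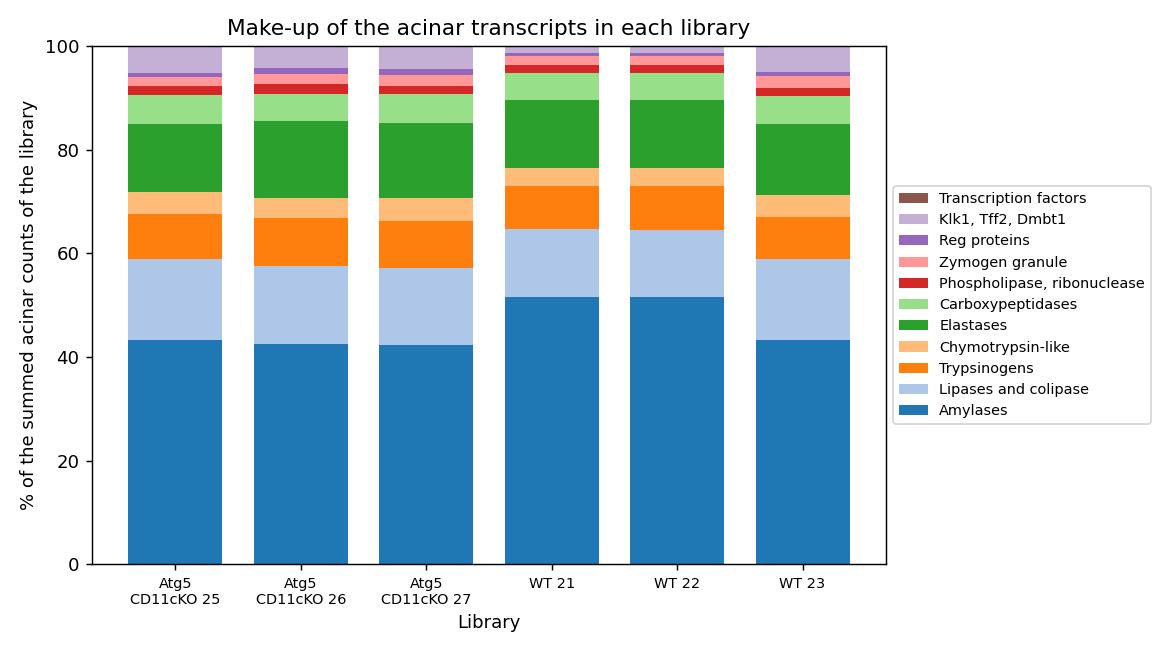
Share of each role in the summed counts of the 41 transcripts (vertical axis, %), 1 bar per library, with the 3 Atg5 CD11cKO bars left of the 3 WT bars. Amylases take 42.2% to 43.2% in the Atg5 CD11cKO libraries, against 51.5% in WT 21 and WT 22 and 43.3% in the library labelled WT 23.

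The make-up of the acinar counts changed accordingly. Amylases were 43.2%, 42.5% and 42.2% of the members' counts in Atg5 CD11cKO 25, 26 and 27, against 51.5%, 51.5% and 43.3% in WT 21, 22 and 23. The widest of the exact binomial 95% intervals was that of the library labelled WT 23, 42.7% to 44.0%. With the 8 members known from other tissues left out, amylases were 48.8%, 48.0% and 47.6%, against 55.3%, 55.4% and 49.2%. Without those members the gap between the high and the low libraries was thus smaller but in the same direction in each library.

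Pairs of libraries gave the size of these departures against replicate spread. For the 25 distinct members with at least 100 counts in every library, the log2 ratio between a pair of libraries was taken for each member, and the SD over members measures how far proportions moved. It was 0.57 to 0.63 between an Atg5 CD11cKO library and WT 21 or WT 22, where counting alone would give 0.067 to 0.070. Among the 3 Atg5 CD11cKO libraries it was 0.19 to 0.29, where counting alone would give 0.093 to 0.096, and between WT 22 and WT 21 it was 0.021. Between an Atg5 CD11cKO library and the library labelled WT 23 it was 0.17 to 0.23, as small as among the Atg5 CD11cKO libraries themselves. Without the members known from other tissues, 20 members were left, and the SD was 0.32 to 0.37 across the high and low libraries and 0.16 to 0.22 among the Atg5 CD11cKO libraries. In this set, departures across high and low libraries were therefore larger than replicate spread with and without those members. They were well under the shift of the sum itself. For the 29 distinct members with at least 1000 counts in total, the SD was 0.58 to 0.74 across high and low libraries. Among the Atg5 CD11cKO libraries it was 0.37 to 0.53. For the 23 of these not known from other tissues, it was 0.40 to 0.54, against 0.35 to 0.57 among the Atg5 CD11cKO libraries. There the departures were not larger than replicate spread.

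**Figure D4:**
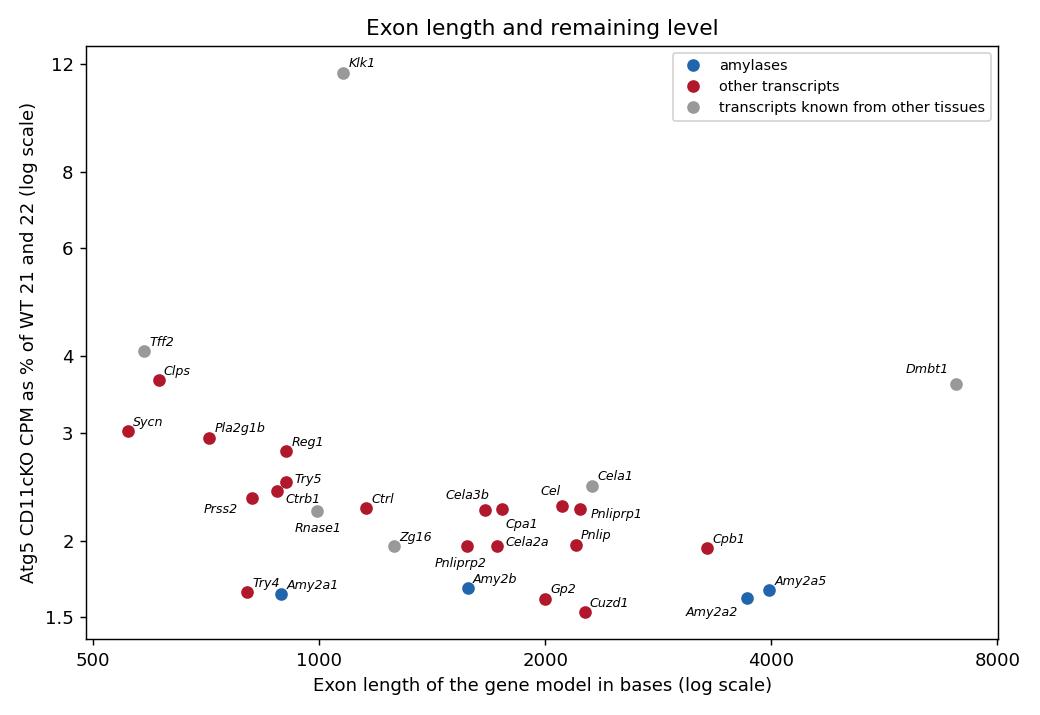
Remaining level in the Atg5 CD11cKO libraries as a percentage of WT 21 and WT 22 (vertical, log axis) against exon length of the gene model in bases (horizontal, log axis), 1 point for each distinct transcript with at least 1000 counts in total. Short transcripts such as Clps and Sycn (3.65% and 3.02%) lie above long ones such as Cpb1 (1.95%), with Try4, Amy2a1, Dmbt1 and Klk1 away from that course.

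Members with shorter gene models tended to keep more. Across the 23 distinct members that have at least 1000 counts in total and are not known from other tissues, log2 of the remaining level and log2 of exon length correlated at r = -0.65 (Spearman's rho = -0.62). Without the amylases as well, r was -0.67 (rho = -0.69, n = 19), and over all 29 it was -0.30 (rho = -0.45). These are descriptions across genes of the same 5 libraries, which are not independent replicates, and the exon length of Amy2a1 is that of a short model. Levels of different members were compared per length. On the scale of CPM per kilobase of exon, Amy2a1, Amy2b and Prss2 were the 3 highest in every library, with 91.6, 68.8 and 47.6 in Atg5 CD11cKO 25, against 5544, 3997 and 1984 in WT 21. The place of Amy2a1 depends on its model of 890 bases. Amy2a2, which differs from it at 1 base there, has a model of 3717 bases and was at 675 in WT 21. The order of single amylase copies is therefore uncertain. Cela2a was at 34.9, 41.2 and 38.6 in Atg5 CD11cKO 25, 26 and 27, against 1957, 1938 and 35.6 in WT 21, 22 and 23. Clps was at 37.3, 37.3 and 37.9, against 1048, 1005 and 33.6. Clps was thus below Cela2a in every library but Atg5 CD11cKO 25, by a smaller factor in the other 3 low libraries than in WT 21 and WT 22.

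**Figure D5:**
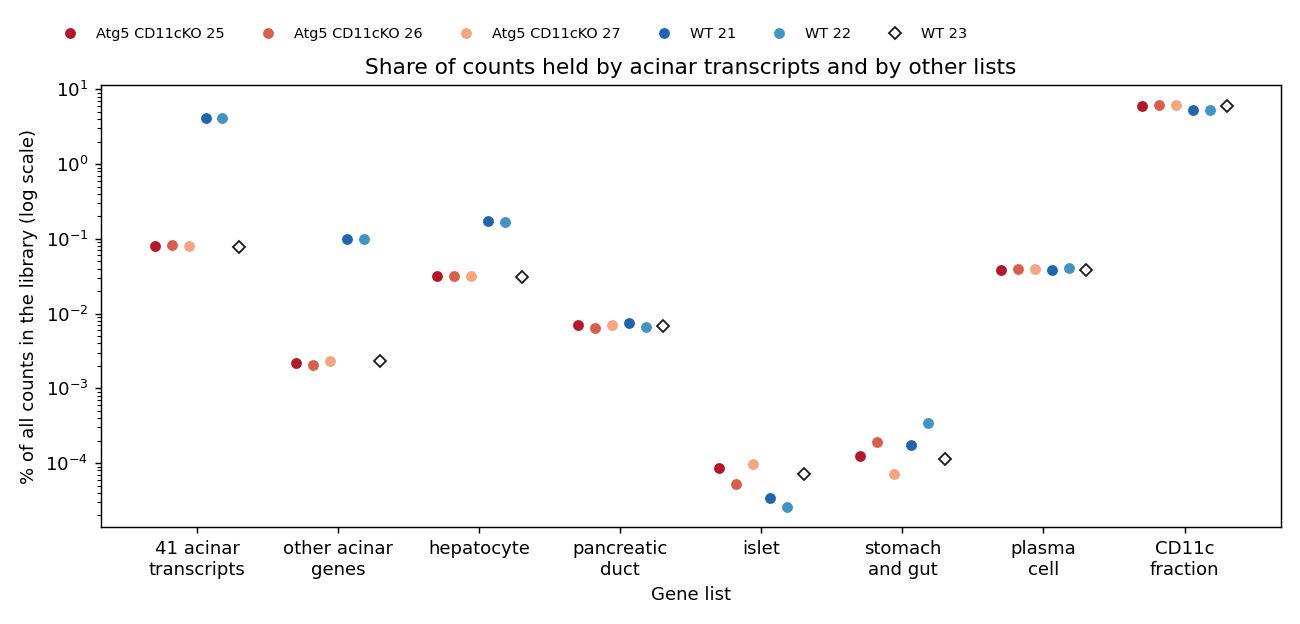
Share of all counts (vertical, log axis, %) held by the 41 acinar transcripts and by 7 other lists in the 3 Atg5 CD11cKO libraries (red), WT 21 and WT 22 (blue) and the library labelled WT 23 (open diamonds). The other acinar genes and the hepatocyte genes are low in the same 4 libraries as the members, whereas the sums of the duct and plasma cell genes are level.

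Acinar genes that are not members moved with them as a sum. The 19 of a list of 20 that have a row held 0.00218%, 0.00206% and 0.00229% of counts in the Atg5 CD11cKO libraries, against 0.0995%, 0.0989% and 0.00236% in the WT libraries. As labelled, no gene passed by edgeR, and the median log2 fold change of the 9 tested was -5.06. Without the library labelled WT 23, 17 of 17 were lower, with a median of -5.17, beside 15.1% of all genes. Some of these, such as Gm5771 and Gm5409 with 0 counts in every Atg5 CD11cKO library, passed the filter only through WT 21 and WT 22. For such genes a lower level was fixed in advance, so nothing is read from this count. Nr5a2, which kept 54.6% (26.3% to 114%), and Reg3a did not pass the filter. Amy1, the salivary and hepatic amylase, was at 2.53, 2.93 and 2.11 CPM in the Atg5 CD11cKO libraries, against 19.6, 25.4 and 2.72 CPM in the WT libraries, and kept 11.2% (9.71% to 12.8%), so it lay with Klk1 and not with the pancreatic amylases.

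Other cell types of the pancreas did not follow as a group. The 8 pancreatic duct markers held 0.00711%, 0.00644% and 0.00705% of counts in the Atg5 CD11cKO libraries, against 0.00754%, 0.00667% and 0.00680% in the WT libraries. Without the library labelled WT 23, the median log2 fold change of the 7 tested was -0.08, beside -0.01 over all genes. Many duct markers, such as Epcam and Krt19, are shared with bile duct cells of the liver. Of the islet genes, Gcg, which encodes glucagon, had 13, 1 and 8 counts, against 5, 0 and 2, and Ins1, Ins2, Ppy, Iapp and G6pc2 were not analysed here.

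Hepatocyte transcripts were lower in the same libraries by less. The 13 hepatocyte markers held 0.0320%, 0.0314% and 0.0316% of counts in the Atg5 CD11cKO libraries, against 0.174%, 0.170% and 0.0311% in the WT libraries. Without the library labelled WT 23, 13 of 13 were lower, beside 15.1% of all genes, with a median log2 fold change of -2.36. Among them, Igfbp1 had 0 counts in every Atg5 CD11cKO library and passed the filter only through WT 21 and WT 22. Alb was at 106, 97.9 and 93.6 CPM, against 534, 528 and 99.5 CPM, and kept 18.7%. Cyp3a11 kept only 0.53% (0.35% to 0.78%), less than any well counted acinar transcript, and Cyp2e1 kept 52.0%. The remaining levels of hepatocyte markers thus covered a wider range than those of the pancreatic enzymes. The part of hepatocyte RNA in the acinar levels was not tested.

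Few other genes had a pattern like that of the members. Among 8981 genes that are not members and had at least 10 CPM in WT 21 and in WT 22, the median remaining level was 102%, and 6 lay within 2-fold of the members' summed value, that is between 0.991% and 3.97%. They included 2210010C04Rik (1.75%), Mup20 (2.57%), Pdia2 (2.05%), Spink1 (1.99%) and Serpini2 (1.77%). Pdia2 is a protein disulfide isomerase of the pancreas and Spink1 a trypsin inhibitor of acinar cells, while Mup20 is a major urinary protein made in liver. Another 5 lay below that range, Cyp3a11, Mup11, Mup8, Igfbp1 and 1810028F09Rik. The likeness was measured over 5 libraries that fall into a high and a low set, so it rests on the size of a single step.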

How the data were processed

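Gene counts of 6 libraries of hepatic CD11c+ cells were analysed. The authors deposited estimated counts for 31426 genes, for which the submitters' processing notes name Partek, bcl2fastq (2.17.1.14), STAR (2.5.3a) and mm10. How reads were counted, on which annotation and with or without strand is not given in the sources at hand. Of the values, 32.9% were whole within 1e-06. The authors also deposited a normalized signal for 20388 genes, the estimated count plus 1 times 1 factor per library, which was used only in alternatives. It listed 39 members, all but Prss1 and Cela3a.

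CPM are counts scaled to 1000000 over all counts of a library, 31064570 to 34034675 per library. Counts under 0.001 were set to 0, and for tests counts were rounded, filtered with filterByExpr at default settings and scaled by TMM, and edgeR's quasi-likelihood test was run, with p adjusted over all genes after Benjamini-Hochberg and a threshold of 0.05 (R 4.3.3, edgeR 4.0.16, limma 3.58.1, DESeq2 1.42.0). Ratios of counts have exact intervals at 95%. The procedure was also run on simulated data for the 6 libraries, where it recovered 99% of 4-fold and 29% of 2-fold changes. The simulation had a common dispersion for all genes and no split within the WT group. It therefore does not show how the test behaves on these libraries. Transcripts were aligned with Biopython 1.88 under Python 3.11.15, in place of the planned protein comparison, for which no table was at hand, and figures were drawn with matplotlib 3.10.9.

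The members, lists and tests were chosen with earlier results of these data known. The members that hold the most counts in their role or depart most in proportion were named with values in each library, and other lists by their highest genes. Alternatives were DESeq2, limma-voom, limma on the deposited normalized values, scaling by RLE or by library totals, either no filter or at least 1 CPM in 3 libraries, other sets of members, and leaving out 1 library at a time. The separate description of the library labelled WT 23 and the spread without amylases were added after seeing the data. Some genes of these lists are not reported here by name.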

Additional observations from a re-analysis of the deposited data

How the results depend on the processing

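No paired analysis was possible because the genotypes share no replicate number. The summed share in Atg5 CD11cKO libraries was 2.95% of that in WT libraries as labelled, 3.48% without the amylases, 2.81% without members known from other tissues and 2.91% to 2.95% with other scalings or rounding. With 1 library left out at a time it was 1.98% to 3.91%, the lowest without the library labelled WT 23. The counts of genes called higher (0) and lower (0) by edgeR became 44 and 372 with DESeq2, and 32 members were then lower in place of 0. The cause was not tested. With 1 library left out at a time, genes higher were 0 to 2900, genes lower 0 to 2755 and members lower 0 to 38, and the upper values came from the omission of the library labelled WT 23. RLE factors, library totals, both other filters, limma-voom and limma on the deposited normalized values gave 0 calls. The SD over members of the log2 ratio to the summed value was 1.05 for the 39 members with at least 30 counts, 0.56 with at least 1000 counts, 0.69 without members known from other tissues and 0.32 without these and the amylases at 1000 counts, and 0.99 to 1.10 with 1 library left out at a time. Near-identical copies, unknown use of strand, unknown origin of each library and low counts in the Atg5 CD11cKO libraries limit single members.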

Other observations

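Scarcer acinar genes that are not members were also found mainly in WT 21 and WT 22. Gm5771 had 0 counts in each of the 3 Atg5 CD11cKO libraries, against 77.5, 88.1 and 0 counts in WT 21, 22 and 23, which is at least 79.0-fold lower than WT 21 and WT 22 when 0 is read as 3 counts over the Atg5 CD11cKO libraries together. Cckar, the receptor through which cholecystokinin acts on mouse acinar cells, had 5.0, 9 and 4.0 counts in the Atg5 CD11cKO libraries, against 295, 159 and 12 counts in the WT libraries. WT 21 and WT 22 differed more for Cckar than for the members with at least 1000 counts, whose WT 22 to WT 21 ratios were between 0.926 and 1.04. Nr5a2, an acinar factor also made in liver, had 5, 7 and 3.35 counts in the Atg5 CD11cKO libraries, against 12.4, 7.04 and 8.01 counts in the WT libraries, so that the highest Atg5 CD11cKO and the lowest WT library were level.

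Between like libraries, the variance over the mean of the counts was somewhat lower for the members than for other genes. It depends on the level, and levels were not matched within the ranges used, so relative variation was not compared. Among the 3 Atg5 CD11cKO libraries, its median was 3.86 over 25 members, beside 4.44 over 10155 other genes, all with mean counts of 100 to 4000. Between WT 21 and WT 22 it was 3.10 over 34 members, beside 4.75 over 11862 genes, with mean counts of 100 to 250000. These libraries thus differed by more than sampling noise and were kept as separate libraries.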
